A study of Mus musculus with 6 samples.

Results

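The Ikaros family of transcription factors consists of 5 genes, Ikzf1 to Ikzf5, and all 5 were found by gene identifier among the 41128 mouse genes of a bulk RNA sequencing table from sorted bone marrow cells. C57BL mice were given the vehicle DMSO or YH250, a small molecule that the submitters call an antagonist of p300 and catenin, by the subcutaneous route at 2 mg per kg. Marrow was collected 16 h afterwards and sorted as lineage-negative cells with Sca1, c-Kit and CD150 on the surface and with neither CD41 nor CD48, the phenotype the submitters use for long-term repopulating hematopoietic stem cells. There were 3 DMSO and 3 YH250 libraries, numbered 1 to 3 in each group, and the labels give neither the age of the mice, nor whether animals were pooled, nor what a number stands for. P-values therefore measure the spread between these libraries, which may be technical.

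Ikaros proteins are zinc finger transcription factors of blood cells. In Ikaros itself, a cluster of fingers near the front of the protein binds DNA around a GGGAA core. A separate pair at the far end lets members of the family dimerize with one another. Ikaros (Ikzf1) is needed for the lymphoid lineages and works largely through chromatin complexes such as NuRD; Helios (Ikzf2) is found in stem cells and T cells, Aiolos (Ikzf3) in lymphocytes, and Eos (Ikzf4) partners Foxp3 in regulatory T cells. Pegasus (Ikzf5) is the most divergent member.

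The second zinc finger shows how close the members are, and whether short reads could be confused between them. Its coding DNA is given here as the GENCODE M21 transcripts on GRCm38 have it, 5′ to 3′ on the coding strand, with the 22 bases that are identical in all 5 members in capitals, out of 69.
Ikzf1: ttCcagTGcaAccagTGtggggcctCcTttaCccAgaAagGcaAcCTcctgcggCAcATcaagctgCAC
Ikzf2: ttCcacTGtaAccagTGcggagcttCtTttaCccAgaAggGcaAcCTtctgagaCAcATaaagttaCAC
Ikzf3: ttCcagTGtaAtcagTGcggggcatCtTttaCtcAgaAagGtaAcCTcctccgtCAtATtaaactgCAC
Ikzf4: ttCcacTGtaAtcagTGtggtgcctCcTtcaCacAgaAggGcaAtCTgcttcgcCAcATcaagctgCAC
Ikzf5: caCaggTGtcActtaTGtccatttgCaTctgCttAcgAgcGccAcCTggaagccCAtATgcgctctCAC
Each lies within a single coding exon: chr11:11754018-11754086 on the plus strand for Ikzf1, and, on the minus strand, chr1:69570581-69570649 for Ikzf2, chr11:98488940-98489008 for Ikzf3, chr10:128640229-128640297 for Ikzf4 and chr7:131392501-131392569 for Ikzf5.

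Over these bases Ikzf1 was 84.1% identical to Ikzf4, 82.6% to Ikzf3 and 81.2% to Ikzf2, but 40.6% identical to Ikzf5. Across whole transcripts, the longest exact run shared by any pair of members was 32 bases, between Ikzf2 and Ikzf4, and the others shared 15 to 26 bases. The reads were 50 bases long, so no read that matches 1 member exactly over its length also matches the annotated transcripts of another. Overlap with genes on the opposite strand is a separate matter, because the sources used here do not say if counting was by strand. In GENCODE M21 the exons of Ikzf5 cover 5.721 kb, and 4652 of these bases are also exonic in Pstk on the other strand. Reads of these neighbours could therefore be exchanged, which limits every level, rank and share of Ikzf5 given below. For Pstk, DMSO 1, 2 and 3 gave 12.9, 20.9 and 21.4 RPM, and YH250 1, 2 and 3 gave 30.5, 33.3 and 24.7 RPM.

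Values are in RPM, reads scaled to a fixed library total, taken as the deposited value minus an offset of 1. At 1 RPM a gene rests on about 22.0 to 31.2 reads, depending on the library. Of the low values, 61.0% (DMSO 1) to 69.0% (YH250 2) lay near a whole number of reads. The rest did not, so all read numbers given here are approximate. The test covered the 13597 genes whose 6-library mean reached 1 RPM, all 5 members included. Over all tested genes the libraries numbered 1 correlated best with each other (r = 0.960) and so did those numbered 3 (0.962), whereas DMSO 2 was closer to YH250 1 (0.947) than to YH250 2 (0.903). Transcripts of the sort markers themselves differed by number. The transcript of CD48, a protein the sort was meant to leave out, reached 258 and 252 RPM in the DMSO and YH250 libraries numbered 3, but only 10.2 to 66.9 RPM in the other 4 libraries. That of CD150, Slamf1, reached 35.5 RPM (DMSO 1) and 31.5 RPM (YH250 1) against 0.515 to 4.69 RPM elsewhere, and Itga2b, for CD41, was likewise highest in number 1 (43.7 and 37.4 RPM). Ly6a and Kit, for Sca1 and c-Kit, were present throughout, with 80.9 to 319 and 130 to 318 RPM. Reads in genes came to 70.0% of the scaled total in DMSO 1 and 95.9% in DMSO 3, with the others between. YH250 2 had the highest summed level of the endothelial and stromal list, 418 RPM against 98.9 to 125 RPM elsewhere. Of that list's 2 most abundant genes, Cxcl12 gave 202 RPM in YH250 2 against 1.73 to 36.3 RPM elsewhere. The other, Pecam1, gave 37.8 RPM there, within its range of 34.6 to 67.4 RPM elsewhere, so the sum does not stand for every gene of the list.

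Ikzf1 was the most abundant member and Ikzf4 the least. Divided by the length of the longest coding transcript, the mean level over all 6 libraries was 27.9 RPM per kb for Ikzf1 (range 11.6 to 55.6), 10.3 for Ikzf2 (6.82 to 15.1), 6.51 for Ikzf5 (4.51 to 9.52), 2.84 for Ikzf3 (0.0315 to 7.35) and 0.824 for Ikzf4 (0.0650 to 1.97). The ranges of neighbours in this order overlap. Within libraries, however, Ikzf1 exceeded Ikzf2 in 6 of 6 and Ikzf5 exceeded Ikzf3 in 6 of 6. Ikzf2 exceeded Ikzf5 in 5 of 6, with YH250 3 as the exception, and Ikzf3 exceeded Ikzf4 in only 4 of 6. Per kb of all annotated exons the order of the means was the same. In RPM, 93.6% of tested genes had a lower mean than Ikzf1, 88.8% than Ikzf2, 61.1% than Ikzf5, 34.8% than Ikzf3 and 19.3% than Ikzf4.

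**Figure D1:**
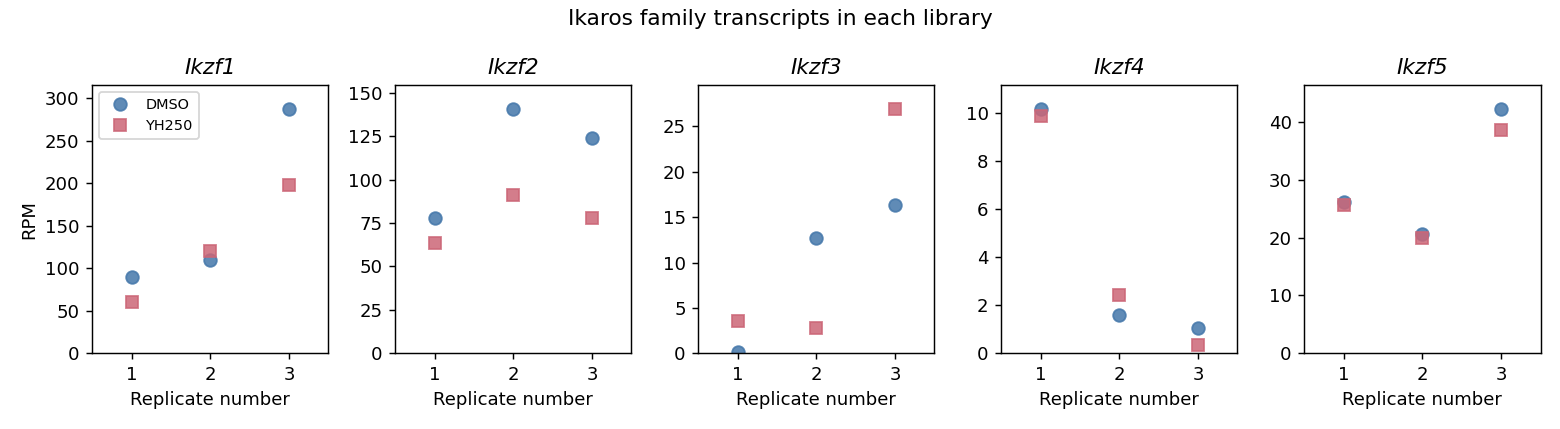
Level of each Ikaros family gene in RPM (vertical axes, one scale per gene, each starting at 0) against the replicate number (horizontal axes). Circles are DMSO and squares are YH250 libraries, 1 point per library; Ikzf1 is highest in both libraries numbered 3 (287 and 198 RPM) and Ikzf4 in both numbered 1 (10.1 and 9.88 RPM).

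Ikzf1, which encodes Ikaros, lies on chromosome 11 (11685003 to 11772926, plus strand). DMSO 1, 2 and 3 gave 89.5, 110 and 287 RPM of it, and YH250 1, 2 and 3 gave 59.9, 121 and 198 RPM. The order of the numbers was the same in both treatments: lowest in number 1, highest in number 3. With limma, number 3 exceeded number 1 by 1.69 ± 0.23 on the log2(RPM + 1) scale (SE, adjusted p = 0.00228, higher in 2 of 2 pairs of libraries). Number 3 also exceeded number 2, by 1.05 ± 0.23 (adjusted p = 0.0294 with limma). The difference of 0.64 ± 0.23 between numbers 2 and 1 did not pass (adjusted p = 0.268). The contrast of numbers 3 and 1 passed without any 1 of the 6 libraries, with adjusted p from 6.78e-06 to 0.0151, but missed the threshold with no minimum mean (adjusted p = 0.0583) and without limma's trend and robust options (adjusted p = 0.0556). That of numbers 3 and 2 was lost without DMSO 2 (0.70, adjusted p = 0.0784) and without DMSO 3 (0.89, adjusted p = 0.189), and narrowly after rescaling libraries to one sum over genes (0.81, adjusted p = 0.0518) or quantile normalization (0.81, adjusted p = 0.0511).

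Ikzf3, the gene of Aiolos (chromosome 11, 98464902 to 98546031, minus strand), was also high in number 3. Levels were 0.115, 12.7 and 16.3 RPM for DMSO 1, 2 and 3, and 3.59, 2.80 and 26.9 RPM for YH250 1, 2 and 3. The level in DMSO 1 corresponds to about 3 reads. The pair numbered 2 differed widely from each other. The log2 difference between numbers 3 and 1 was 3.28 ± 0.79 (SE, limma, adjusted p = 0.0332). This call rests on few libraries: without DMSO 1 the difference was 1.97 (adjusted p = 0.234), without DMSO 3 it was 3.58 (adjusted p = 0.137), and without YH250 3 it was 2.99 (adjusted p = 0.154). Number 3 minus 2 (1.61 ± 0.79, adjusted p = 0.239) and number 2 minus 1 (1.67 ± 0.79, adjusted p = 0.372) did not pass with limma. Both contrasts turn on which library stands for number 2. Number 2 minus 1 was 3.28 without YH250 2 (adjusted p = 0.00297) but 0.07 without DMSO 2 (adjusted p = 0.957). Number 3 minus 2 was 3.22 without DMSO 2 (adjusted p = 0.000606) but 0.0022 without YH250 2 (adjusted p = 0.999).

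Ikzf4, encoding Eos (chromosome 10, 128630843 to 128645991, minus strand), ran the other way. DMSO 1, 2 and 3 had 10.1, 1.60 and 1.06 RPM, and YH250 1, 2 and 3 had 9.88, 2.44 and 0.335 RPM, the last of these about 8 reads. No library of another number came near the pair numbered 1. Number 3 was lower than number 1 by a log2 difference of -2.73 ± 0.52 (SE, limma, adjusted p = 0.0127, lower in 2 of 2 pairs). With a single library left out of either number the adjusted p lay between 0.0548 and 0.139 and the difference between -3.14 and -2.32, so the call needs both libraries of each number (DMSO 1, YH250 1, DMSO 3 and YH250 3). Number 2 minus 1 was -1.88 ± 0.52 (adjusted p = 0.192) and number 3 minus 2 was -0.85 ± 0.52 (adjusted p = 0.344). An antisense neighbour, Gm26876, shares 37 exonic bases with Ikzf4 and had a mean of 1.77 RPM. Foxp3, whose product pairs with Eos in regulatory T cells, was at 0 to 1.56 RPM, below the minimum for testing.

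Ikzf2, which encodes Helios (chromosome 1, 69531214 to 69687245, minus strand), varied less. The levels in order of number were 77.7, 140 and 124 RPM with DMSO, then 63.3, 90.9 and 77.9 RPM with YH250, so that number 1 was lowest and number 2 highest in both treatments. No contrast between numbers passed with limma: 0.68 ± 0.21 for number 2 minus 1 (adjusted p = 0.222), 0.48 ± 0.21 for 3 minus 1 (adjusted p = 0.195) and -0.20 ± 0.21 for 3 minus 2 (adjusted p = 0.594).

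Ikzf5, the gene of Pegasus (chromosome 7, 131388652 to 131410521, minus strand), gave 26.1, 20.6 and 42.2 RPM with DMSO and 25.6, 19.99 and 38.7 RPM with YH250, in order of number. The treatments nearly coincided at each number. If counting ignored the strand, these values could include reads of Pstk. The contrasts of Ikzf5 between numbers did not pass with limma: 0.96 ± 0.27 for 3 minus 2 (adjusted p = 0.0664), 0.62 ± 0.27 for 3 minus 1 (adjusted p = 0.196) and -0.33 ± 0.27 for 2 minus 1 (adjusted p = 0.615). Number 3 minus 2 passed with a minimum mean of 5 RPM (adjusted p = 0.0469 with limma). It did not pass after rescaling libraries to one sum over genes (0.73, adjusted p = 0.133) or with no minimum mean (adjusted p = 0.215). Without limma's trend and robust options the adjusted p was 0.139. The difference was 0.94 without DMSO 2, 0.91 without DMSO 3 and 1.003 without YH250 3.

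In all, 3 of the 5 members passed between numbers 3 and 1, with Ikzf1 and Ikzf3 higher and Ikzf4 lower in number 3. With no minimum mean all 3 missed the threshold (adjusted p = 0.0583, 0.208 and 0.0811), and without the trend and robust options Ikzf1 and Ikzf3 did (0.0556 and 0.129). Over all tested genes 8.56% passed in this contrast, 5.60% as higher and 2.96% as lower. Between numbers 3 and 2, 1 of 5 members passed, Ikzf1 as higher, against 6.31% of all genes (3.67% higher, 2.64% lower). Between numbers 2 and 1 none of the 5 passed, against 0.199% (0.177% higher, 0.0221% lower). The count of higher calls over all genes between numbers 3 and 1 was 761, with 403 lower, but rescaling each library to one sum turned this to 466 and 892. The median log2 difference of the 5 members was 0.62 for number 3 minus 1, beside 0.04 over all tested genes. The same rescaling moved that all-gene median by -0.32. After it the difference was 1.34 for Ikzf1 and -3.11 for Ikzf4 (adjusted p = 0.00703 and 0.00993), while Ikzf3 missed the threshold (3.18, adjusted p = 0.056).

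The make-up of the family shifted along with these levels, a measure that does not depend on how libraries are scaled. Of the summed family level per kb, Ikzf1 made up 51.6%, 47.4% and 66.9% in DMSO 1, 2 and 3 and 42.8%, 60.02% and 61.0% in YH250 1, 2 and 3. Ikzf2 took its smallest shares in number 3, 16.1% in DMSO and 13.3% in YH250, against 24.9% to 33.8% in the other 4 libraries. The ratio of Ikzf1 to Ikzf2 per kb was accordingly 4.16 and 4.58 in the libraries numbered 3 and between 1.40 and 2.38 elsewhere. Ikzf4 made up 5.86% and 7.08% in number 1, and at most 1.22% in any other library. Ikzf3 ranged from 0.0937% in DMSO 1, on about 3 reads, to 11.7% in YH250 3. Ikzf5 held 21.3% and 17.5% in number 1 and 10.4% to 13.9% elsewhere. These shares were not tested.

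**Figure D2:**
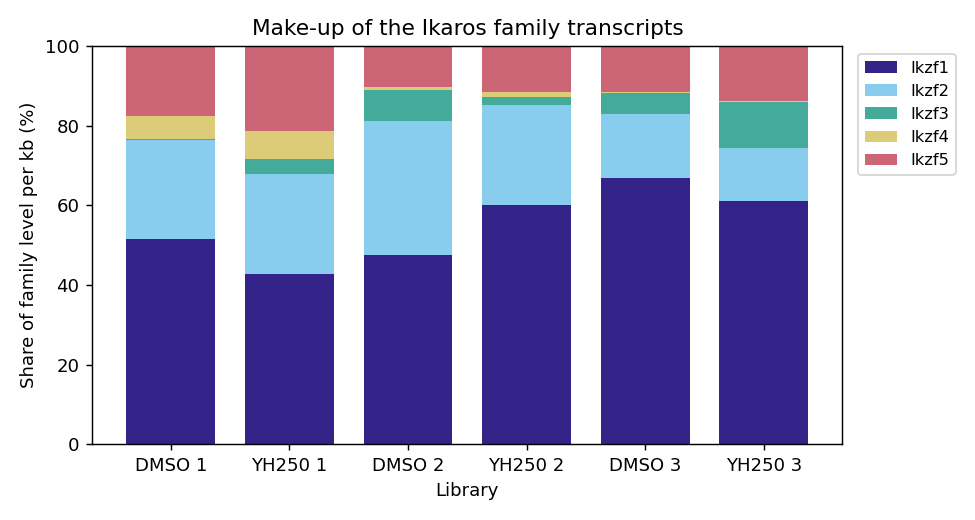
Share of each Ikaros family gene in the summed family level (RPM per kb of the longest coding transcript, vertical axis, percent) in each of the 6 libraries (horizontal axis, ordered by replicate number). Each bar is 1 library; the Ikzf2 segment is smallest in the libraries numbered 3 (16.1% and 13.3%) and the Ikzf4 segment is largest in those numbered 1 (5.86% and 7.08%).

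Whether YH250 altered the family is the comparison the study was designed for. None of the 5 members passed, nor did any of the 13597 tested genes (limma, 0% called; 231 genes had an unadjusted p under 0.05, and none of the 5 members was among them). With the replicate number as a block, 1012 genes had an unadjusted p under 0.05 and 0 passed. The Ikzf1 mean was 162 ± 109 RPM with DMSO against 126 ± 69.5 RPM with YH250 (SD over 3 libraries each), a log2 difference of -0.32 with a 95% confidence interval of -1.54 to 0.89. Ikzf3 had 9.72 ± 8.51 and 11.1 ± 13.7 RPM, with a difference of 0.29 and an interval of -2.45 to 3.03. Ikzf4 had 4.27 ± 5.10 and 4.22 ± 5.01 RPM (-0.09, interval -2.08 to 1.91). Ikzf5 had 29.6 ± 11.2 and 28.1 ± 9.57 RPM (-0.06, interval -0.87 to 0.74). With the replicate number as a block the intervals narrowed, to -0.74 to 0.10 for Ikzf1, -1.15 to 1.73 for Ikzf3, -1.04 to 0.87 for Ikzf4 and -0.56 to 0.44 for Ikzf5, and all 4 still included 0.

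Ikzf2 came nearest to a difference between treatments. The means were 114 ± 32.6 RPM with DMSO and 77.4 ± 13.8 RPM with YH250 (SD over 3 libraries each). The groups overlapped, as they did for all 5 members, because DMSO 1 (77.7 RPM) lay below YH250 2 and YH250 3; over all tested genes 7.48% did not overlap. YH250 was lower at each number, by log2 differences of -0.29, -0.62 and -0.66 at numbers 1, 2 and 3. Over all tested genes, 15.0% were lower in YH250 at all 3 numbers. The fitted log2 difference was -0.52 ± 0.28 (SE, 95% confidence interval -1.16 to 0.11, adjusted p = 0.999 with limma). With the replicate number as a block, the standard error fell to 0.17 and the interval was -0.91 to -0.14, but the adjusted p over all genes was 0.66. The other members did not keep one sign at all 3 numbers, except Ikzf5 (-0.03, -0.04 and -0.12). Ikzf1 was lower in YH250 at numbers 1 and 3 (-0.57 and -0.53) and higher at number 2 (0.13). Ikzf3 went from 2.04 at number 1 to -1.85 at number 2.

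**Figure D3:**
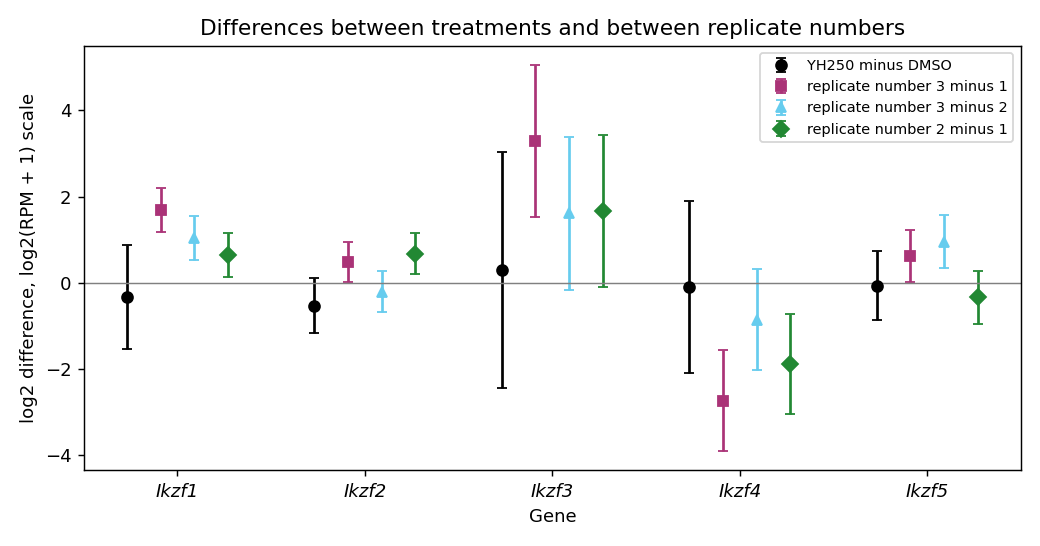
Fitted log2 difference of each Ikaros family gene (vertical axis, log2(RPM + 1) scale) for the contrast of treatments and the 3 contrasts of replicate numbers; points are limma estimates and bars are 95% confidence intervals. The intervals for YH250 minus DMSO, from the fit without the replicate block, include 0 for all 5 genes, and those for number 3 minus 1 run from 1.18 to 2.20 for Ikzf1 and from -3.90 to -1.57 for Ikzf4.

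The partners through which Ikaros proteins act on chromatin passed the test between numbers 3 and 1 about as often as genes at large, of which 8.56% passed. Of 14 NuRD subunits and associated proteins tested, 1 passed as higher in number 3, and the median log2 difference was 0.03, beside 0.04 for all genes. It was Mta3, a NuRD subunit, with 31.3, 54.3 and 82.0 RPM for DMSO by number and 40.3, 65.5 and 90.8 RPM for YH250 (1.26, adjusted p = 0.00900 with limma). Between numbers 3 and 2 another subunit gene, Mta2, passed as lower in number 3 (-1.02, adjusted p = 0.0427 with limma). The histone chaperone Rbbp7 ranged from 252 to 403 RPM and the remodelling ATPase Chd4 from 108 to 197 RPM. None of 10 other corepressor and SWI/SNF genes passed (median 0.05), among them Arid1a and Smarce1, which encode SWI/SNF subunits. The cereblon ubiquitin ligase, which in human cells immunomodulatory drugs turn against Ikaros and Aiolos, likewise had 0 of 5 genes past the threshold (median 0.23). Its most abundant genes were Rbx1 and Ddb1, for the RING subunit and the adaptor, with 162 to 321 and 88.4 to 169 RPM. The substrate receptor gene Crbn ranged from 24.8 to 44.8 RPM. Between treatments, 0 genes of these lists passed, and their medians were 0.06, 0.11 and 0.19, beside 0.02 for all genes.

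Most genes of lymphoid priming were higher in number 3. Of 12 tested, 10 passed as higher than in number 1 and none as lower, with a median log2 difference of 3.85. Of all tested genes, 5.60% passed as higher and 2.96% as lower, and the median was 0.04. Dntt, which adds bases at antigen receptor joints, gave 5.76, 38.3 and 633 RPM with DMSO and 10.2, 153 and 614 RPM with YH250, by number (6.17, adjusted p = 2.9e-05 with limma). Il7r, a cytokine receptor subunit of early lymphocytes, gave 1.014, 4.198 and 122 RPM with DMSO and 6.33, 9.46 and 130 RPM with YH250 (5.04). Ltb, a cytokine gene and the list's second most abundant, did not pass (-0.54, adjusted p = 0.112 with limma), though it was lower in number 3 than in number 2 (-0.97, adjusted p = 0.0175 with limma). Ikzf1 and Ikzf3 moved in the same direction as the 10 that passed. Whether either acts on these genes was not tested. Between YH250 and DMSO 0 of the 12 passed (median 0.37, beside 0.02 for all genes, of which 0% passed).

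Among 18 tested lymphoid transcription factors, 8 were higher in number 3 than in number 1 and none was lower (median 0.71). The shares over all tested genes in this contrast were 5.60% higher and 2.96% lower (median 0.04). Irf4 was at 0.192 RPM in DMSO 1 but 43.8 in DMSO 3, and at 0.160 in YH250 1 but 49.9 in YH250 3 (5.34). Irf8 went from 6.22 to 152 RPM between those DMSO libraries and from 8.40 to 172 RPM between those YH250 libraries (4.30). Both are interferon regulatory factors of lymphoid and dendritic cells. The most abundant, Myb and Bcl11a, did not pass (0.42 and 0.36). Pax5, the defining factor of committed B cells, was at 0.273 RPM at most. In the opposite direction, 7 of 13 regulators of stem cells and of the megakaryocyte and erythroid lineages were lower in number 3 and none was higher (median -1.19). Zfpm1, a partner of GATA factors, fell from 50.9 to 11.02 RPM between DMSO 1 and DMSO 3 and from 51.3 to 11.5 RPM between YH250 1 and YH250 3 (-2.09). Hlf, a stem cell factor, had a difference of -1.19, and Lmo2, the list's most abundant gene, did not pass (-0.60). In this contrast Ikzf4 had the sign of these genes. Of the genes tested with regulatory T cells, Il2ra and Ctla4 were both higher in number 3 (2.97 and 2.87).

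**Figure D4:**
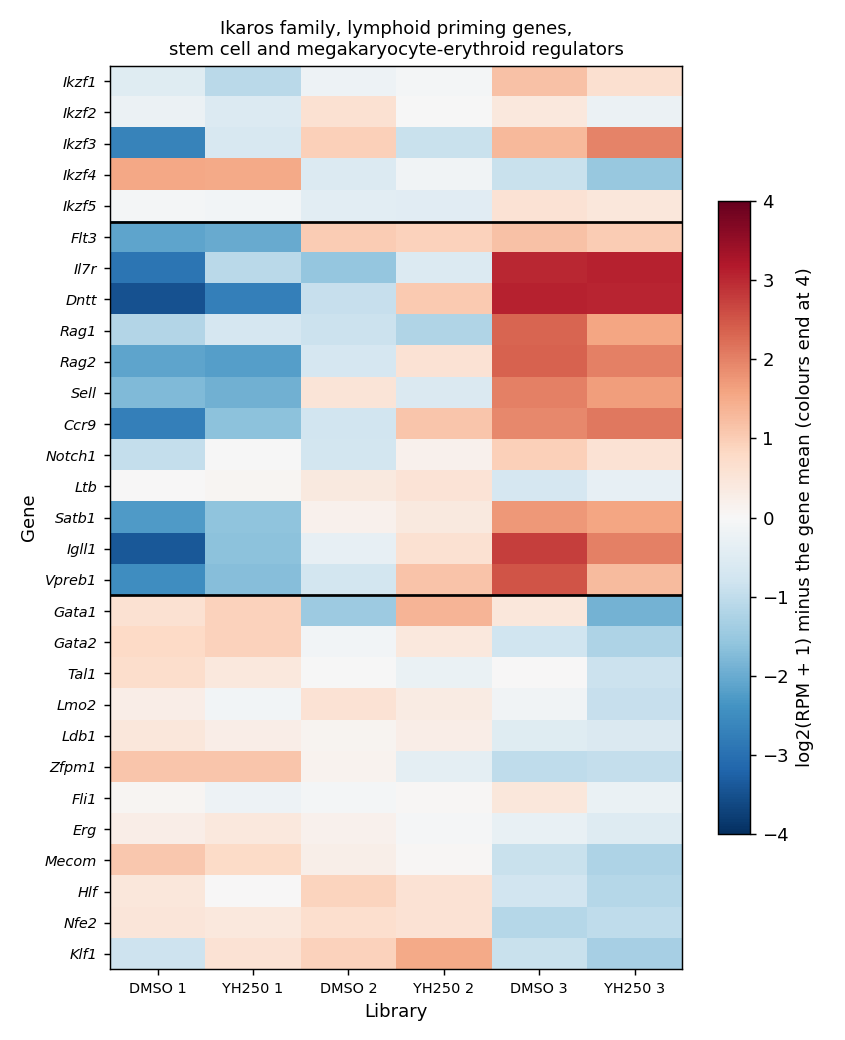
Level of the genes of 3 lists (rows, 1 gene of the last list not shown, separated by black lines: Ikaros family, lymphoid priming, stem cell and megakaryocyte-erythroid regulators) in each library (columns, ordered by replicate number), as log2(RPM + 1) minus the gene's mean over the 6 libraries. Red is above and blue below the gene's mean; Ikzf1 and Ikzf3 are red in both libraries numbered 3, as are 11 of the 12 lymphoid priming genes, and Ikzf4 is red in both numbered 1.

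Markers of other cell types also differed by number, and their part in the levels of the family was not tested. The 10 B cell markers summed to 68.2 RPM in DMSO 1 and 699 in DMSO 3, and to 175 RPM in YH250 1 and 898 in YH250 3. For 6 plasmacytoid dendritic cell markers the sums of the same 4 libraries were 5.23, 613, 22.2 and 637 RPM, and for 12 T and NK cell markers 63.9, 527, 144 and 518 RPM. Of the markers tested, 8 of 9, 5 of 6 and 5 of 12, respectively, passed as higher in number 3 than in number 1. In the same contrast 5.60% of all tested genes passed as higher and 2.96% as lower. The B cell list shares Igll1 and Vpreb1 with that of lymphoid priming, and Ebf1 and Pax5 with the lymphoid transcription factors; the plasmacytoid dendritic cell list shares Ccr9 with lymphoid priming. These counts are therefore not independent. Granulocyte and monocyte markers summed to 320, 933, 463 and 927 RPM in that order, with 2 of 12 higher, and the 6 megakaryocyte markers to 141, 42.1, 142 and 19.05 RPM, with 3 of 6 lower. No marker was at 0 in all libraries. In RNA pooled from many cells, a change in the number of cells that express a gene cannot be told apart from a change in its level per cell.

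By likeness of pattern, the gene closest to Ikzf1 over the 6 libraries was Cbfb, which encodes the partner subunit of RUNX factors (Pearson r = 0.996 on log2(RPM + 1)), followed by Runx2 (0.995) and Rspry1 (0.992). By number, Cbfb gave 91.9, 97.0 and 179 RPM with DMSO and 69.6, 108 and 138 RPM with YH250. For Ikzf2 the closest were Ncoa4 (0.983), Ppfibp1 (0.952) and Insig2 (0.951). Ikzf3 was followed most closely by Tamm41 (0.997), Bmyc (0.993) and Dcaf13 (0.991). Ikzf4 ran with Bex1 (0.999), Khk (0.997) and the SMAD corepressor gene Ski (0.996), and Bex1 went from 73.5 RPM in DMSO 1 to 23.6 in DMSO 3 and from 72.6 RPM in YH250 1 to 17.7 in YH250 3. For Ikzf5 they were Ezr, the gene of the membrane linker ezrin (0.995), Ugcg (0.995) and Birc6 (0.992). Each was picked from about 8550 genes with means of 10 RPM or more, over only 6 libraries that pair by number, so these values describe the libraries and carry no test.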

How the data were processed

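Poly(A) RNA of 6 libraries (3 DMSO, 3 YH250) was analysed from 1 deposited table. Per the labels' protocols, cDNA came from an ultra-low-input kit and was read as 50-base single ends; tools listed in the submitters' processing notes are Partek, TopHat2 (2.0.8) and CASAVA (1.8.2), with build mm10 and no roles. The authors deposited 1 normalized signal per gene and library. Its unit is not stated and was read from the values as RPM plus 1. Symbols were matched for 40254 of 41128 genes, and positions are from GENCODE M21 (GRCm38, also called mm10). For genes averaging 1 RPM or more, log2(RPM + 1) entered limma 3.58.1 (R 4.3.3; trend and robust), treatment alone, or number plus treatment for contrasts of numbers, adjusted by Benjamini-Hochberg at 0.05 over all tested genes. The scripts were tested on simulated data. Members, lists (8 of pathways, 9 of markers) and tests were chosen with earlier results of these data known.

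Same-numbered libraries deviated together from their group means (correlations 0.55, 0.26 and 0.70), least so for number 2. For DMSO and YH250 libraries of unlike number the correlations ran from -0.55 to 0.14. The treatment test nevertheless stayed without a block, as planned, and values with the block are given beside it. Named from each list were the 2 most abundant genes and the 2 largest called differences of numbers 3 and 1, except 1 gene that is not reported here; Crbn, Pax5, Foxp3, Igll1, Vpreb1, Ccr9, Ebf1, Mta2 and the overlapping genes Pstk and Gm26876 were named after their values were seen. Alternatives covered pseudocount, minimum, scaling, weights, variance prior, the block and left-out libraries.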

Additional observations from a re-analysis of the deposited data

How the results depend on the processing

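None of the 5 members changed its call for YH250 minus DMSO under any alternative: 0 genes passed in every one, the replicate block included. The replicate block changed no call of a member. Signs that turned, none past the threshold, were those of Ikzf4 (0.47) and Ikzf5 (0.14) with array weights; of Ikzf3 (-0.97) and Ikzf4 (0.67) without DMSO 1; of Ikzf1 (0.19) and Ikzf5 (0.22) without DMSO 3; of Ikzf1 (0.13) without YH250 1; of Ikzf5 (0.15) without YH250 2; of Ikzf3 (-0.62) and Ikzf4 (0.65) without YH250 3; and, in alternatives chosen after seeing the data, of Ikzf3 (-0.58) without both libraries numbered 1 and Ikzf4 (0.18) without both numbered 3. With 1 library left out, the difference ranged from -0.73 to 0.19 for Ikzf1, -0.97 to 1.009 for Ikzf3, -0.87 to 0.67 for Ikzf4 and -0.31 to 0.22 for Ikzf5. Ikzf2 was negative in every alternative run.

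Between numbers 3 and 1, 1164 genes passed, against 180 with no minimum mean, 2641 with array weights and 526 without trend and robust, and 414 to 2944 with 1 library left out (485 without DMSO 1, 2901 without DMSO 2, 414 without DMSO 3, 2944 without YH250 2). Between numbers 3 and 2, 858 passed, against 42 with no minimum, 154 without trend and robust, and 252 to 3122 with 1 library left out (3122 without DMSO 2, 252 without DMSO 3, 500 without YH250 3). Between numbers 2 and 1, 27 passed, against 0 with no minimum, 75 with a minimum of 5 RPM, 46 after quantile normalization, 0 without trend and robust, and 43 to 1743 with 1 left out (43, 1743 and 76 without DMSO 1, 2 and 3; 53, 266 and 94 without YH250 1, 2 and 3). The split of calls between numbers 3 and 1 was 761 higher and 403 lower, but 466 and 892 after rescaling to one sum and 642 and 661 after quantile normalization; between numbers 3 and 2 it was 499 and 359, but 343 and 717, and 438 and 524. With no minimum mean, Ikzf1, Ikzf3 and Ikzf4 missed the threshold between numbers 3 and 1 (adjusted p = 0.0583, 0.208 and 0.0811), as did Ikzf1 and Ikzf3 without trend and robust (0.0556 and 0.129), and Ikzf1 between numbers 3 and 2 (0.181 and 0.159, and 0.0504 without the treatment term). Between numbers 2 and 1, Ikzf1 passed without DMSO 2 (0.99, adjusted p = 0.0273) but not without YH250 2 (0.30, adjusted p = 0.679), and Ikzf4 passed without YH250 2 (-2.25, adjusted p = 0.0446) but not without DMSO 2 (-1.51, adjusted p = 0.0826). A fit with 1 library in a number assumes that it varies like the others. The cause of these shifts was not tested.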
